A study of Mus musculus with 6 samples.

Results

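The 10 genes *Sparc*, *Sparcl1*, *Postn*, *Tgfbi*, *Tnc*, *Tnn*, *Thbs1*, *Thbs2*, *Thbs4* and *Fn1* were picked by symbol from the 23284 genes listed for each sample, and all 10 were found. They encode SPARC and its relative, the fasciclin-domain proteins periostin and TGFBI, tenascins, thrombospondins, and fibronectin. ECFP+ OBs had been sorted from ectopic bone that grew in BMP-2-loaded collagen sponges under the skin of adult male *Col2.3*-ECFP mice, in which a type I collagen promoter fragment drives the cyan reporter. Both groups carried this transgene and received BMP-2 without any other agent, and they differed in being collected on day 10 (n = 3) or day 14 (n = 3) after implantation. The sort kept live cells that lacked the leukocyte antigen CD45. Collagenase digestion was run 1 time for day 10 bone but 2 times for day 14 bone, so digestion and day cannot be told apart. The sources used here do not say whether a sample came from 1 mouse or several, so the p-values measure only the spread between these samples. The titles put all 3 later samples on day 14, while the free-text descriptions of replicates 2 and 3 name day 15 and day 16.

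Most of these proteins are called matricellular: they are secreted into the matrix, where they act on collagen fibrils, growth factors and cell-surface receptors more than as load-bearing parts. SPARC, also named osteonectin, binds collagen and calcium and is abundant in bone. Fibronectin forms the early fibrillar scaffold on which cells lay down collagen, and periostin and the tenascins bind to that network. The question here is how these genes stood in OBs over the days in which their shape changed and mineral appeared.

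Expression was measured as FPKM, a read density scaled for exon length and for the mapped reads of the sample, so levels of different genes are compared per length. Summed over genes, FPKM came to 431898 in the lowest sample and 486940 in the highest, and the mapped reads estimated from the low values ran from 4538571 to 7772659 per sample. Day 14 replicate 2 stood apart from the other day 14 samples. It had 16646 genes above 0, against 17630 to 19698 in the other 5 samples. Its 12 chondrocyte markers summed to 1045 FPKM, against 115 and 73.8 in day 14 replicates 1 and 3 and between 420 and 858 on day 10. Its 9 OB markers summed to 53324 FPKM, against 30949 and 26360 in the other day 14 samples and between 39665 and 76098 on day 10. Its 10 myeloid markers summed to 20.4 FPKM, the lowest of the 6 samples, against 269 and 628 FPKM in day 14 replicates 1 and 3 and 36.9, 164 and 124 FPKM on day 10. Other marker lists summed to between 446 and 675 FPKM (5 osteoclast genes), 41.5 and 989 FPKM (5 osteocyte genes), 25.7 and 46.9 FPKM (7 mural genes), and 0 and 1.15 FPKM (4 adipocyte genes). The osteoclast sums were 446 to 487 FPKM on day 10 and 626 to 675 FPKM on day 14. Most of each sum came from *Ctsk* (means 414 and 596 FPKM), which was higher on day 14 without overlap. *Ocstamp* was lower on day 14 without overlap (means 0.496 and 0.202 FPKM). No *Ocstamp* value was above 0.727 FPKM, and 3 reads on 1000 bases give 0.386 to 0.661 FPKM at the estimated depths. Over the 19526 genes tested, 7.59% had days that did not overlap and were higher on day 14, and 6.67% were lower in this way. The days overlapped for *Acp5* (means 27.2 and 26.9 FPKM), *Mmp9* and *Dcstamp*. All 9 OB markers were above 0 in each of the 6 samples. Most of each OB sum came from *Col1a1* and *Col1a2*. Only *Sp7* had days that did not overlap. It measured 73.7, 51.1 and 40.1 FPKM on day 10 and 9.79, 27.9 and 4.09 FPKM on day 14. In day 14 replicates 1 and 3, *Dlx5* (0.979 and 1.01 FPKM) and *Alpl* (273 and 186 FPKM) lay below all day 10 values. For *Bglap* and *Bglap2*, day 14 replicate 1 lay above day 10 replicate 3. Values without day 14 replicate 2 are given where they end or bring a call in a member or a related gene. In sorted bulk RNA, fewer cells of a type and less RNA per cell cannot be told apart.

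*Sparc* stood far above the others on both days. By day 10 mean the order was *Sparc*, *Postn*, *Fn1*, *Thbs1*, *Thbs2*, *Tnc*, *Tnn*, *Tgfbi*, *Thbs4* and *Sparcl1*. On day 14 the only change in this order was that *Thbs2* passed *Thbs1*. On day 10 the neighbours *Postn* and *Fn1*, *Thbs1* and *Thbs2*, and *Thbs2* and *Tnc* had overlapping sample ranges, while the other 6 neighbouring pairs did not overlap. On day 14 the overlapping neighbours were *Postn* and *Fn1*, *Thbs2* and *Thbs1*, *Thbs1* and *Tnc*, *Tnn* and *Tgfbi*, and *Tgfbi* and *Thbs4*. The 10 genes together made up 3.52% to 4.33% of all FPKM in a sample. *Sparc* supplied between 62.7% and 82.3% of that share.

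**Figure D1:**
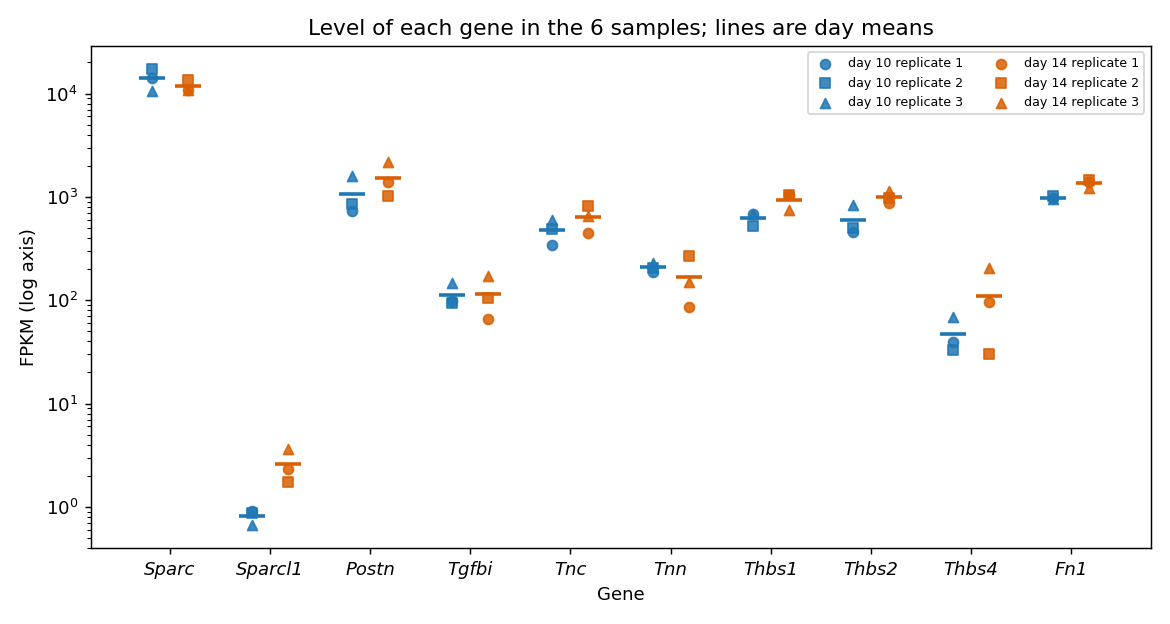
FPKM of each of the 10 genes (logarithmic vertical axis) in the 6 samples, with day 10 in blue, day 14 in orange, a marker shape for each replicate number and short lines for the day means. *Sparc* lies at or above 10661 FPKM in every sample, *Sparcl1* at or below 3.65 FPKM, and the days do not overlap for *Sparcl1*, *Thbs1*, *Thbs2* and *Fn1*.

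Between the days, 7 of the 10 genes had a positive and 3 a negative log2 fold change (FPKM + 0.1, day 14 minus day 10). Their median was 0.50, against −0.04 over the 19526 genes tested and 0.04 over those with a mean of at least 10 FPKM. None of the 10 had an adjusted p under 0.05 from limma over all genes tested, a threshold that 0.0154% of all genes passed. At an unadjusted p under 0.05 from limma, 3 members were higher on day 14, namely *Sparcl1*, *Thbs1* and *Thbs2*, and none was lower. Over all genes tested, 5.60% were higher and 4.40% lower at that unadjusted p, and among the 4605 genes with a mean of at least 10 FPKM, 14.4% were higher. In *Sparcl1*, *Thbs1*, *Thbs2* and *Fn1* every day 14 sample exceeded every day 10 sample, and no member showed the opposite. Such separation upwards was seen in 7.59% of all genes tested and in 15.7% of those with at least 10 FPKM, and separation downwards in 6.67% of all genes tested. Only *Sparcl1* was over 2-fold higher, a size reached by 5.25% of all genes tested.

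The scaling of the samples bore on these counts. After quantile normalization of the log2 values only *Sparcl1* kept an unadjusted p under 0.05 from limma, and only *Sparcl1* still had days that did not overlap. Over all 19526 genes tested, 2333 had that p after this normalization, against 1954 as deposited. After scaling each sample to the same FPKM sum, *Sparcl1*, *Thbs1* and *Fn1* had days that did not overlap. The 595 genes with a mean between 100 and 2000 FPKM, where 7 of the 10 genes lie, had a median log2 fold change of 0.13 as deposited and −0.03 after quantile normalization.

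**Figure D2:**
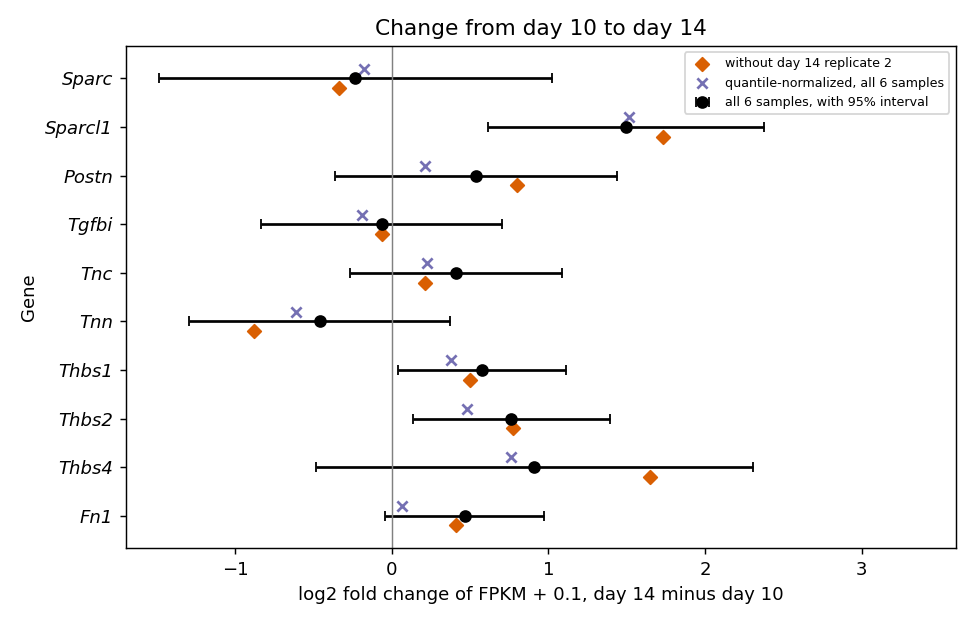
Log2 fold change of FPKM + 0.1 as day 14 minus day 10 for each gene (horizontal axis), with black points and 95% intervals from limma for all 6 samples, orange diamonds without day 14 replicate 2 and purple crosses after quantile normalization. The interval lies above 0 for *Sparcl1*, *Thbs1* and *Thbs2*, and the quantile-normalized value of *Fn1* falls to 0.06.

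*Sparc* (chromosome 11, 55394500 to 55423183, minus strand of mm10) was measured at 14136, 17354 and 10661 FPKM in day 10 replicates 1, 2 and 3. On day 14 it stood at 10917, 13626 and 10848 FPKM. The days overlapped, and the lowest of the 6 values belonged to day 10 replicate 3. The means were 14050 ± 3347 FPKM (SD, n = 3) on day 10, rank 5 of all genes listed, and 11797 ± 1584 FPKM (SD, n = 3) on day 14, rank 4. The log2 fold change was −0.23 with a 95% interval from −1.49 to 1.02 (adjusted p = 0.939 from limma), which leaves room for folds from 0.356 to 2.03.

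*Sparcl1* (chromosome 5, 104079111 to 104113733, minus strand), also called hevin, encodes a SPARC relative known from blood vessels and brain. It measured 0.912, 0.874 and 0.662 FPKM in the day 10 samples and 2.33, 1.74 and 3.65 FPKM in those of day 14. All day 14 values were above all day 10 values, and every value was low. The fold change of FPKM + 0.1 was 2.81 (95% interval 1.53 to 5.18), a log2 fold change of 1.49 with a standard error of 0.39. Its unadjusted p was 0.00431 and its adjusted p was 0.310 from limma, and the two-sided exact permutation test gave p = 0.1, the smallest p that 3 samples against 3 can give. These values rest on an estimated 7.3 to 8.4 reads per day 10 sample and 16.8 to 42.2 reads per day 14 sample. An annotated antisense gene, *Gm26703*, overlaps *Sparcl1*, and reads of the pair cannot be told apart without strand information. The same limit holds for *Tnc* and *Thbs1*, which *8030451A03Rik* and *Gm29233* overlap on the opposite strand. No FPKM was listed for any of these overlapping genes. The 8 endothelial markers, the cells for which *Sparcl1* is best known, summed to between 1.68 and 3.53 FPKM on day 10 and between 4.89 and 8.42 FPKM on day 14. Of these, *Emcn* and *Cldn5* were listed at 0 in at least 1 sample, and only 2 of the 8 had a mean of at least 1 FPKM. In 3 of the 8 the days did not overlap, all higher on day 14, a separation seen in 7.59% of all genes tested. These 3, *Pecam1*, *Emcn* and *Esam*, were at or below 0.662 FPKM in every day 10 sample. For scale, 3 reads on 1000 bases give 0.386 to 0.661 FPKM at the estimated depths. The part of endothelial RNA in the value of *Sparcl1* was not tested.

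Periostin, encoded by *Postn* (chromosome 3, 54361109 to 54391037, plus strand), is a matrix protein of the periosteum and tendon that binds collagen and tenascin-C. *Postn* measured 725, 860 and 1601 FPKM in the day 10 samples and 1378, 1015 and 2191 FPKM in those of day 14. Replicate 3 was the highest sample of each day, and the days overlapped because day 10 replicate 3 exceeded day 14 replicates 1 and 2. The means were 1062 ± 472 FPKM and 1528 ± 602 FPKM (SD, n = 3 each). The log2 fold change was 0.54 (95% interval −0.36 to 1.44, adjusted p = 0.716 from limma), and it was 0.80 without day 14 replicate 2.

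*Tgfbi* (chromosome 13, 56609523 to 56639562, plus strand) encodes a paralog of periostin with the same kind of fasciclin domains, named for its induction by TGF-β. It measured 99.1, 94.3 and 146 FPKM in the day 10 samples and 65.4, 106 and 172 FPKM in those of day 14. The day 14 samples held both the lowest and the highest of the 6 values. The means were nearly the same at 113 ± 28.4 and 114 ± 53.8 FPKM (SD, n = 3 each). The log2 fold change was −0.06 (95% interval −0.83 to 0.71, adjusted p = 0.978 from limma), of the opposite sign to the difference between the arithmetic means, and it turned positive when day 10 replicate 3 (0.13) or day 14 replicate 1 (0.28) was left out.

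Promoter windows of 300 bases, from 250 bases before to 50 after an annotated start, were available from RefSeq (GRCm38.p6, the assembly of mm10) for 7 of the 10 genes. A set of 5 words was searched on both strands: TATAAA for the TATA box, CCAAT for the CCAAT box (NF-Y), GGCGGG as a GC-rich word, TGANTCA for the AP-1 element and TGTGGT for RUNX factors. They occurred in 13.6%, 37.4%, 35.3%, 7.81% and 16.8% of all 32851 windows, in that order. Positions are given from the start, with the first transcribed base as 1, for the first base of a match as read along the gene's strand, and capitals mark the matches. A match is a description of these letters only. The GC-box word GGGCGG was not searched and is not marked. The window of *Postn* nearest to its gene start is shown because *Postn* ranked next to *Sparc* in level. It lies at chr3:54360857-54361156 on the plus strand, has a GC content of 53%, and holds TATAAA at position −26.

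*Postn*: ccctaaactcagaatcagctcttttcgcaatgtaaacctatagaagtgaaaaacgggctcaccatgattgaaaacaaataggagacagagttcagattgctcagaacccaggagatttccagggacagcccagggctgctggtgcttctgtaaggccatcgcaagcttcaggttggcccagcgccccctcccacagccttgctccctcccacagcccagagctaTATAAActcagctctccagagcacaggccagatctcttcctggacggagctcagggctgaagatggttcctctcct

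Tenascin-C, encoded by *Tnc* (chromosome 4, 63959785 to 64047015, minus strand), is a large multimeric glycoprotein of tendon, periosteum and healing tissue. *Tnc* measured 344, 492 and 601 FPKM in the day 10 samples and 446, 813 and 656 FPKM in those of day 14. The highest value belonged to day 14 replicate 2, and the days overlapped. The means were 479 ± 129 and 639 ± 184 FPKM (SD, n = 3 each), with a log2 fold change of 0.41 (95% interval −0.27 to 1.09, adjusted p = 0.712 from limma) that was 0.21 without day 14 replicate 2.

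*Tnn* (chromosome 1, 160085029 to 160153580, minus strand) encodes tenascin-N, also named tenascin-W, which is known from bone and periosteum. It measured 189, 206 and 231 FPKM in the day 10 samples, a narrow range, and 85.8, 271 and 149 FPKM in those of day 14. Day 14 replicate 2 had the highest of the 6 values and the other day 14 samples had the lowest values. The means were 209 ± 21.3 and 168 ± 94.0 FPKM (SD, n = 3 each). The log2 fold change was −0.46 (95% interval −1.29 to 0.37, unadjusted p = 0.239 and adjusted p = 0.750 from limma). Without day 14 replicate 2 it was −0.88 (unadjusted p = 0.00857 and adjusted p = 0.185 from limma), and over the 14 alternative settings the adjusted p from limma ran from 0.185 to 0.997. The tenascin windows are shown to set both genes side by side, since their log2 fold changes had opposite signs. Of the 2 overlapping windows of *Tnc*, the one nearest to its gene start (chr4:64046966-64047265, minus strand, GC content 47.3%) holds TATAAA at position −126. That of *Tnn* (chr1:160153526-160153825, minus strand, GC content 44.3%) holds CCAAT on the other strand at position −59.

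*Tnc*: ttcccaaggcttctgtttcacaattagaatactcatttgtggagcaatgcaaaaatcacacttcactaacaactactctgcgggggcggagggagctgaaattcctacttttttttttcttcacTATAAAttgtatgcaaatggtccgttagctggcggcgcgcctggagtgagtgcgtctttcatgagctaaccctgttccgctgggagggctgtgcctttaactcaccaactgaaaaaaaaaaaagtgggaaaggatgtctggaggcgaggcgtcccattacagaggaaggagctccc

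*Tnn*: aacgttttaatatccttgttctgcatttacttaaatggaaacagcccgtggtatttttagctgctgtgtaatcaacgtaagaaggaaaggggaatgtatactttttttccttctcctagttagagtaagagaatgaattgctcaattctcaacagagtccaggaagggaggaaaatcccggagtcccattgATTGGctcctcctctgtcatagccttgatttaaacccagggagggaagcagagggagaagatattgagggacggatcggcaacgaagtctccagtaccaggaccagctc

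Thrombospondin 1 binds CD47 and integrins and can release TGF-β from its latent complex. Its gene *Thbs1* (chromosome 2, 118111876 to 118127133, plus strand) measured 677, 524 and 685 FPKM in the day 10 samples and 1036, 1036 and 749 FPKM in those of day 14. All day 14 values were above all day 10 values, with day 14 replicate 3 closest to day 10. The means were 629 ± 90.7 and 940 ± 166 FPKM (SD, n = 3 each). The fold change was 1.49 (95% interval 1.03 to 2.16), with an unadjusted p of 0.0388 and an adjusted p of 0.465 from limma (two-sided exact permutation test, p = 0.1). Without day 14 replicate 2 the unadjusted p from limma was 0.0929, and it was under 0.05 in 4 of the 14 alternative settings. Of the 6 settings that left out a sample, only the one without day 14 replicate 3 kept it there (0.0248), and the others gave an unadjusted p from limma between 0.0562 and 0.158. Platelets, a rich source of thrombospondin 1, were represented by 5 marker genes that summed to between 7.03 and 14.0 FPKM on day 10 and between 4.55 and 17.6 FPKM on day 14. Of these, *Pf4*, *Ppbp* and *Gp9* were listed at 0 in at least 1 sample.

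*Thbs2* (chromosome 17, 14665500 to 14694235, minus strand) encodes the related trimeric thrombospondin of fibroblasts and skeletal progenitors, which takes part in collagen fibril assembly. It measured 459, 504 and 834 FPKM in the day 10 samples and 866, 965 and 1127 FPKM in those of day 14. The days did not overlap, but day 10 replicate 3 lay close below day 14 replicate 1. The means were 599 ± 205 and 986 ± 132 FPKM (SD, n = 3 each). The fold change was 1.70 (95% interval 1.10 to 2.62), with an unadjusted p of 0.0232 and an adjusted p of 0.418 from limma (two-sided exact permutation test, p = 0.1). The unadjusted p from limma stayed under 0.05 in 10 of the 14 alternative settings. It was 0.0992 without day 10 replicate 1, 0.0899 without day 10 replicate 2 and 0.0762 without day 14 replicate 3.

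Thrombospondin 4 is a pentameric member known from tendon and muscle, and its gene *Thbs4* (chromosome 13, 92751590 to 92794818, minus strand) varied the most of the 10 genes. It measured 39.1, 33.0 and 68.1 FPKM in the day 10 samples and 95.8, 29.99 and 204 FPKM in those of day 14, so that the highest sample was 6.80 times the lowest. Day 14 replicate 2 had the lowest and day 14 replicate 3 the highest of the 6 values. The log2 fold change was 0.91 (95% interval −0.49 to 2.31, unadjusted p = 0.172 and adjusted p = 0.687 from limma). Without day 14 replicate 2 the fold change was 3.14 (unadjusted p = 0.00292 and adjusted p = 0.128 from limma), and over the 14 alternative settings the adjusted p from limma ran from 0.128 to 0.997. The 6 samples had the same order for *Thbs4* as for the mean log2 level of the 7 fibroblast and tendon markers, the single match among the 110 pairs of a member and a marker list. These markers summed to 327, 337 and 556 FPKM on day 10 and to 749, 477 and 1018 FPKM on day 14, and all 7 were above 0 in every sample. The sums did not keep that order, since day 14 replicate 2 lay above day 10 replicates 1 and 2. Single markers also differed. *Scx* was lowest in day 14 replicate 3 (4.12 FPKM), where the other markers were highest. *Tnmd* was at 132 FPKM in day 14 replicate 2, above all day 10 samples. The mean log2 level of the 10 myeloid markers shared part of the order of *Thbs4*. It was highest in day 14 replicate 3, then day 14 replicate 1, and lowest in day 14 replicate 2. What part the cells of either marker list had in the *Thbs4* values was not tested. The 4 skeletal muscle markers summed to at most 8.79 FPKM in any sample.

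The thrombospondin windows are shown for *Thbs2*, whose days did not overlap, and for *Thbs4*, the most variable gene. That of *Thbs2* (chr17:14694213-14694512, minus strand, GC content 48.3%) holds CCAAT on the other strand at position −186 and on the gene's strand at −144, and TATAAA on the other strand at −126. That of *Thbs4* (chr13:92794769-92795068, minus strand, GC content 72%) holds GGCGGG on the other strand at positions −138, −52 and 39 and none of the other words.

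*Thbs2*: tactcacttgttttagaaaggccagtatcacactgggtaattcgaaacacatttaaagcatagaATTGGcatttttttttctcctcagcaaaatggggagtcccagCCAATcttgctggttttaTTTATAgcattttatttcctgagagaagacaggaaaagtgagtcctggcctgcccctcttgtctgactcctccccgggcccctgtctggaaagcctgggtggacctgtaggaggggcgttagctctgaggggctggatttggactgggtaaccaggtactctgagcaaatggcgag

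*Thbs4*: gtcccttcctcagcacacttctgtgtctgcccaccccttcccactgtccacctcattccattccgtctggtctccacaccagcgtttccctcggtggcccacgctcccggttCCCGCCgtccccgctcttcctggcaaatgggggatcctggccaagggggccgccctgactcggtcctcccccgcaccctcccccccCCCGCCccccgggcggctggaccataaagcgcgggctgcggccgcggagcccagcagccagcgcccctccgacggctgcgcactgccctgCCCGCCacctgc

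*Fn1* (chromosome 1, 71585520 to 71653200, minus strand) had the narrowest range of the 10 genes relative to its level on day 10, at 981, 1009.5 and 956 FPKM. On day 14 it stood at 1395, 1471 and 1216 FPKM. All day 14 samples were above all day 10 samples, and the means were 982 ± 26.6 and 1361 ± 131 FPKM (SD, n = 3 each). The fold change was 1.38 (95% interval 0.972 to 1.96), with an unadjusted p of 0.0672 and an adjusted p of 0.537 from limma (two-sided exact permutation test, p = 0.1). After quantile normalization the log2 fold change was 0.06 (unadjusted p = 0.757 from limma). The gene has many splice forms, and FPKM per gene does not separate them. *Apol7d*, annotated on the opposite strand across the start of *Fn1*, was listed at no more than 1.11 FPKM.

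**Figure D3:**
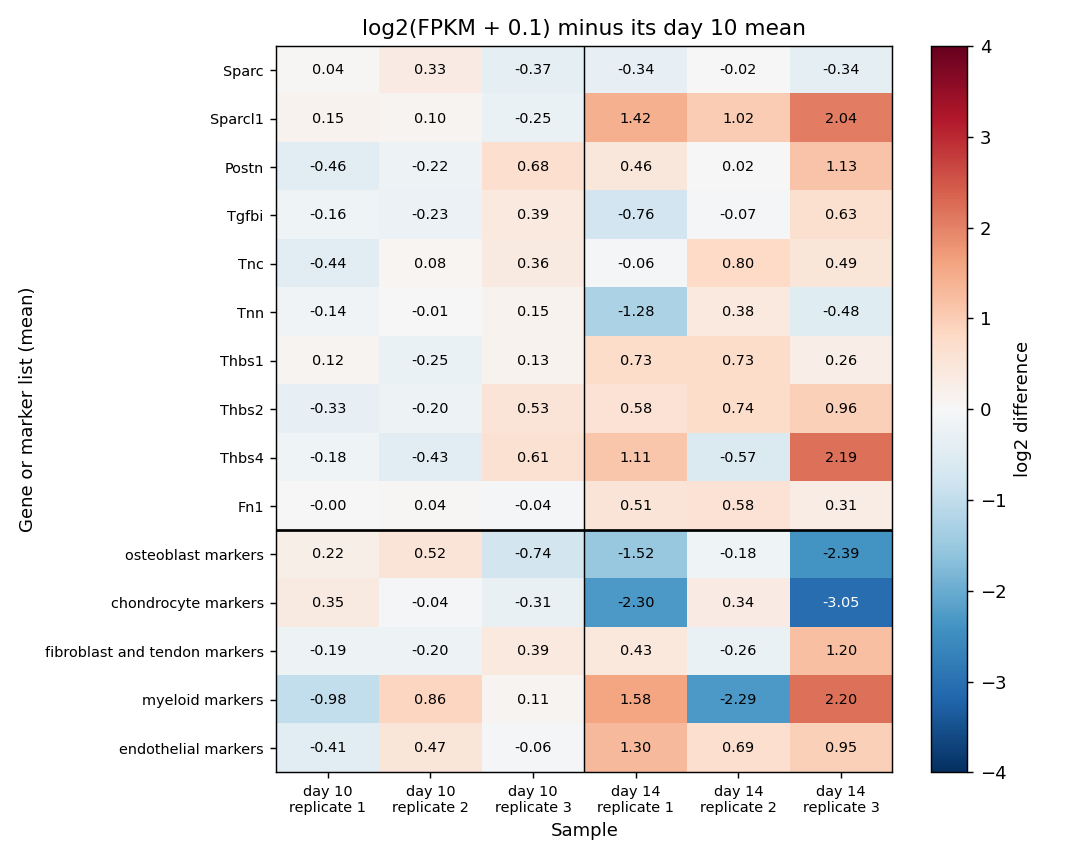
Each cell gives log2(FPKM + 0.1) in 1 sample minus the day 10 mean, for the 10 genes (above the line) and for the mean over 5 marker lists (below it), with red above and blue below the day 10 mean. *Thbs4* reads 2.19 in day 14 replicate 3 and −0.57 in replicate 2, *Tnn* reads −1.28 in replicate 1 and 0.38 in replicate 2, and the OB markers read −2.39 in replicate 3 and −0.18 in replicate 2.

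A list of 42 related genes was read from the same fit. Of these, 41 passed the filter of a mean above 0.1 FPKM, and *Spock3* did not. None had an adjusted p under 0.05 from limma, while 12 had an unadjusted p under 0.05 and were higher on day 14 and none was lower. Over all genes tested that share was 5.60% higher and 4.40% lower, and 14.4% were higher among genes with at least 10 FPKM. The days did not overlap in 11 genes, all higher on day 14, against 7.59% of all genes and 15.7% of those with at least 10 FPKM. The median log2 fold change was 0.36, against −0.04 over all genes tested and 0.04 over those with at least 10 FPKM.

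In the SPARC family, *Smoc2*, a calcium-binding matrix protein, measured 108, 104 and 145 FPKM in the day 10 samples and 189, 261 and 311 FPKM in those of day 14. The days did not overlap, and the log2 fold change was 1.08 with a standard error of 0.23 (limma, adjusted p = 0.292). *Fstl1*, a secreted follistatin-like protein, went from a mean of 566 ± 205 to 956 ± 303 FPKM (SD, n = 3 each) with overlapping days and a log2 fold change of 0.77 (adjusted p = 0.494 from limma). *Smoc1*, *Spock1*, *Spock2* and *Spock3* were each at or below 3.36 FPKM in every sample.

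The other tenascins, *Tnr* and *Tnxb*, were at or below 2.27 FPKM in every sample, so *Tnc* and *Tnn* supplied nearly all tenascin message. *Thbs3* was at 43.5 ± 11.2 FPKM on day 10 and 51.9 ± 16.8 FPKM on day 14 (SD, n = 3 each), with overlapping days. *Comp*, the cartilage thrombospondin, measured 767, 640 and 359 FPKM in the day 10 samples and 118, 1383 and 99.8 FPKM in those of day 14. Its highest value belonged to day 14 replicate 2, the sample with the highest chondrocyte marker sum, and its lowest values to the other day 14 samples. The log2 fold change of *Comp* was −1.15 (adjusted p = 0.746 from limma). Without day 14 replicate 2 it was −2.37 (adjusted p = 0.0371 from limma, with a range of 0.0371 to 0.997 over the 14 alternative settings).

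Among fibronectin-network genes, all 9 had a positive log2 fold change as deposited, and 8 after quantile normalization, where *Efemp2* went from 0.037 to −0.13. The sign for *Vtn* (0.32, 95% interval −1.84 to 2.47) was opposite to that of its arithmetic means, 0.650 FPKM on day 10 and 0.472 FPKM on day 14. *Vtn* was listed at 0 in day 10 replicate 2 and was low in every sample. Of all genes tested, 9085 of 19526 had a positive value, as did 2521 of the 4605 with at least 10 FPKM. The largest was that of *Fbln1*, encoding fibulin 1, from 53.0 ± 15.0 to 151 ± 64.2 FPKM (SD, n = 3 each; log2 fold change 1.45, adjusted p = 0.305 from limma). Without day 14 replicate 2 it was 1.84 (adjusted p = 0.0404 from limma, with a range of 0.0404 to 0.968 over the 14 alternative settings). *Fbln5*, an elastic-fibre fibulin, measured 15.4, 14.6 and 21.0 FPKM in the day 10 samples and 35.3, 37.7 and 39.0 FPKM in those of day 14, and its log2 fold change was 1.15 with a standard error of 0.18 (limma, adjusted p = 0.165). Both had days that did not overlap.

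Of the 17 receptor genes, 5 were higher on day 14 at an unadjusted p under 0.05 from limma and none was lower, against the same shares of 5.60% of all genes and 14.4% of those with at least 10 FPKM that were higher. *Itgb5*, the β5 chain that pairs with αv to bind matrix ligands such as vitronectin and periostin, measured 71.5, 90.3 and 106 FPKM in the day 10 samples and 229, 143 and 193 FPKM in those of day 14. Its days did not overlap, and its log2 fold change was 1.07 with a standard error of 0.22 (limma, adjusted p = 0.292). *Itga9*, whose protein takes part in tenascin-C binding, was low at 3.56 ± 1.35 and 7.21 ± 1.77 FPKM (SD, n = 3 each), with days that did not overlap. *Cd47*, the thrombospondin 1 receptor, was at 112 ± 16.9 and 167 ± 28.4 FPKM (SD, n = 3 each; log2 fold change 0.57, adjusted p = 0.377 from limma), also without overlap. *Itgb1*, the most abundant of these receptors, was at 234 ± 8.94 and 259 ± 42.5 FPKM (SD, n = 3 each) with overlapping days. The days also overlapped for *Itga5*, a chain of the fibronectin receptor (73.6 ± 17.0 and 106 ± 51.0 FPKM), and for the syndecan *Sdc4* (84.0 ± 15.7 and 94.9 ± 25.8 FPKM). Of the 6 TGF-β and processing genes, 4 had a positive and 2 a negative log2 fold change. *Tgfbr1* and *Tgfbr2* had an unadjusted p under 0.05 from limma and were higher on day 14. Their adjusted p values from limma were 0.395 and 0.443, and the days of *Tgfbr2* overlapped.

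**Figure D4:**
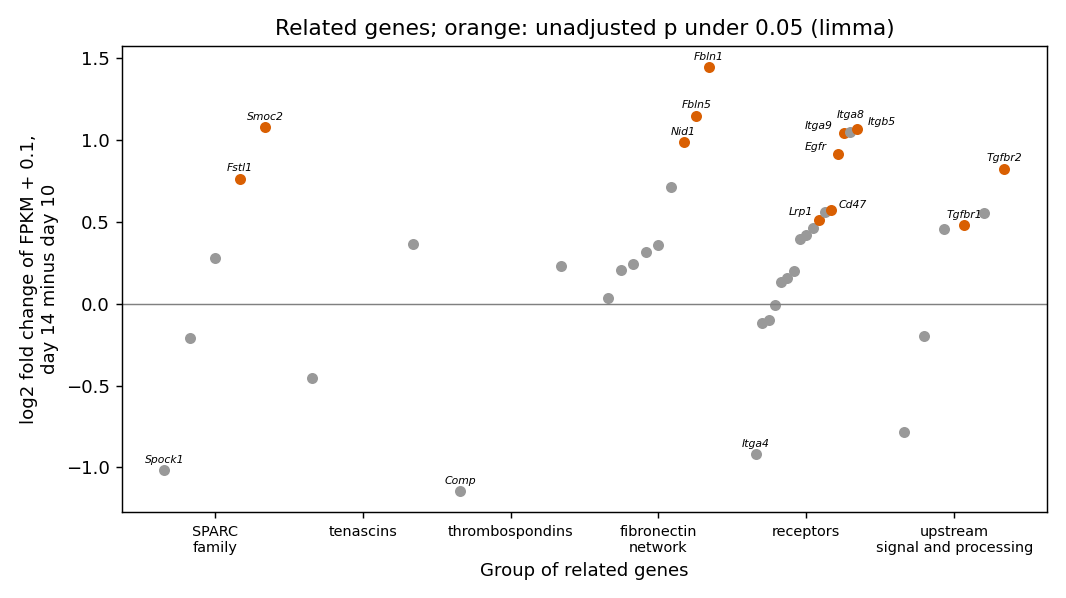
Log2 fold change of FPKM + 0.1 as day 14 minus day 10 (vertical axis) for the 41 related genes that were tested, by group, each point 1 gene and orange for an unadjusted p under 0.05 from limma. All 12 orange points lie above 0, and *Comp* is the lowest point at −1.15.

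The genes whose pattern over the 6 samples lay nearest to a member were found among those with a mean of at least 10 FPKM, by the root mean square difference between centred log2 levels. The search ran over 4604 candidates (4605 for *Sparcl1*) and 6 samples, and the measure is given as a description. *Lrrc15* was nearest to *Postn* (0.0660 on the log2 scale, where *Postn* itself varied by 0.546). *Slbp* was nearest to *Thbs1* (0.0482), *Gpc4* to *Fn1* (0.0615) and *Nop58* to *Tnc* (0.0760). *Cald1* was nearest to *Thbs2* (0.113), *Ccl2* to *Thbs4* (0.289) and *Igfbp6* to *Sparcl1* (0.263). *2310011J03Rik* was nearest to *Sparc* (0.0778), *Chmp1b* to *Tgfbi* (0.182) and *Med27* to *Tnn* (0.171). Among the members themselves, *Fn1* stood in place 24 for *Thbs1*, the closest that any member came to another.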

How the data were processed

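FPKM values of ECFP+ OBs sorted on day 10 (n = 3) and day 14 (n = 3) were used, 1 file per sample. The authors deposited FPKM per gene from Cufflinks 2.2.1, run on single-end reads of SMART-Seq libraries that SAMtools 0.1.19, Bowtie2 2.2.3 and TopHat2 2.0.13 had served to align (mm10). The annotation, the treatment of multi-mapped reads and any scaling between samples are not given in the sources used here. In 1 file, 25 symbols had become dates and were restored by position.

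log2(FPKM + 0.1) of the 19526 genes with a mean FPKM above 0.1 was compared with limma 3.58.1 in R 4.3.3 (mean-variance trend, day as the only factor, Benjamini-Hochberg adjustment over all genes tested). All 10 members passed the filter. A two-sided exact permutation test was added for each member. The fit was tested on simulated data, drawn as independent normal log2 values around the mean of each gene. No simulated sample was set apart, so that test does not cover a sample such as day 14 replicate 2. Depth was estimated from steps between values up to 0.3 FPKM in 1977 genes with 1 annotated transcript. Between 75.4% and 79.9% of these came within 0.1 of a whole number of reads, at a fragment length of 235 bases, and reads per member are approximate. Such read counts cover counting error only. Positions are those of GENCODE vM21.

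The members, related genes and markers were chosen with earlier results of these data known. Named were all members, related genes over 2-fold with an unadjusted p under 0.05, the other SPARC, tenascin and thrombospondin genes, and the 5 most abundant receptors. Of the 3 genes found most like each member, the nearest was named. *Tgfb1*, *Tgfbr1*, *Tgfbr2*, *Fbln2*, *Efemp1*, *Efemp2*, *Cd36*, *Itgb3*, *Itgb6* and *Stab1* were named after their values were seen. Alternatives were other pseudocounts, filters, scalings and variance models, the replicate block, and leaving out each sample.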

Additional observations from a re-analysis of the deposited data

How the results depend on the processing

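Over 14 alternative settings none of the 10 members reached an adjusted p under 0.05 from limma. *Sparcl1* kept an unadjusted p under 0.05 in all 14, *Thbs2* in 10, *Thbs1* in 4, *Thbs4* in 2, *Tnn* and *Fn1* in 1 each and the other members in 0. The sign of the log2 fold change held in every setting for 9 members, and *Tgfbi* turned positive in 2 (range with 1 sample left out −0.41 to 0.28). After quantile normalization 1 member and 2333 of all 19526 genes tested had an unadjusted p under 0.05 from limma, against 3 members and 1954 genes in the main fit. Days that did not overlap were left in 1 member in place of 4. With 1 sample left out, the members at that unadjusted p numbered from 1 to 4 (1 without day 10 replicate 1 or without day 10 replicate 2). The related genes numbered from 7 (without day 10 replicate 1) to 18 (without day 14 replicate 2). The latter setting brought *Fbln2* (0.00668), *Efemp1* (0.0131), *Itgb3* (0.00993) and *Cd36* (0.0113) under an unadjusted p of 0.05 from limma, higher on day 14. It also brought *Comp* (9.14e-05) and *Tgfb1* (0.0156) there, lower on day 14. All genes at that unadjusted p ranged from 937 of 19379 tested (without day 10 replicate 1) to 2559 of 18804 (without day 14 replicate 1). All genes with an adjusted p under 0.05 ranged from 3 to 76 (76 without day 14 replicate 2, 6 without day 10 replicate 3 or day 14 replicate 1, 5 without day 10 replicate 2). The cause was not tested.

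Among the named related genes, with a sample left out, the log2 fold change also changed sign in *Spock2* (−0.089 to 0.57), *Smoc1* (−0.51 to 0.019), *Tnr* (−1.23 to 0.15), *Tnxb* (−0.55 to 0.99), *Thbs3* (−0.011 to 0.44) and *Sdc4* (−0.053 to 0.31), and after quantile normalization in *Itgb1* (−0.022). Among related genes that the naming rule left out, *Efemp2* (−0.13), *Cd36* (0.22) and *Itgb6* (0.23) changed sign after quantile normalization, as did *Cd36* (1.24), *Itgb6* (0.35) and *Stab1* (0.26) without day 14 replicate 2.

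With the replicate block, 2 genes in all reached that adjusted p in limma, and 3 members (*Sparcl1*, *Thbs2* and *Thbs4*) and 15 related genes had an unadjusted p under 0.05. So did 2130 of all 19526 genes tested. The samples were not taken as paired in the main fit because the study does not state a paired design. Deviations of same-numbered samples correlated across genes between −0.0058 and 0.0887, and 4 of the 6 samples correlated best with their own number. Low read numbers limit *Sparcl1* alone among the members. The others rest on at least an estimated 528 reads per sample. With a pseudocount of 1, 23 of the 30 genes most like a member were the same, and after scaling to the same sum, 29 were. These comparisons of likeness, and those of overlapping days under other scalings, were chosen after seeing the data.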

Other observations

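Ratios of FPKM between members of a family do not depend on how a sample is scaled as a whole. A set of 5 such ratios was computed after the values had been seen. *Tnc* over *Tnn* was 1.82, 2.39 and 2.59 in day 10 replicates 1, 2 and 3 and 5.20, 3.004 and 4.41 in day 14 replicates 1, 2 and 3. The days did not overlap, and the mean log2 ratio was 0.87 higher on day 14 (p = 0.1, the smallest possible, from an exact permutation test taken two-sided, and 0.25 after adjustment over the 5 ratios). Without day 14 replicate 2 it was 1.10 higher. *Sparcl1* over *Sparc* also had days that did not overlap, with a mean log2 ratio 1.83 higher on day 14 (p = 0.1 from the same exact permutation test, 0.25 after adjustment), and it carries the low read numbers of *Sparcl1*.

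The days overlapped for the other 3 ratios. *Postn* over *Tgfbi* was 7.31, 9.12 and 11.0 on day 10 and 21.1, 9.59 and 12.7 on day 14. *Thbs2* over *Thbs1* ran from 0.678 to 1.22 on day 10 and from 0.836 to 1.51 on day 14. *Thbs4* over *Thbs1* ran from 0.0578 to 0.0994 on day 10, and day 14 replicate 2 (0.0289) lay below and replicate 3 (0.272) above all day 10 samples.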
